A study of Musca domestica with 16 samples.

Results

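The genes described here are 58 house fly genes of Musca domestica that were abundant in testes, nearly silent in heads, and without an assigned ortholog in Drosophila melanogaster. They are 0.396% of the 14631 genes in the authors' deposited table and 3.00% of the 1934 genes that the table puts in its ortholog category "lr". None of those 1934 genes carries a Drosophila gene ID in the table, and the sources used here do not spell out the abbreviation. Sex in this species depends on a male determiner, which lies on the Y chromosome in YM males and on chromosome III in IIIM males, and the study compared the transcripts of both. The YM testes and YM male heads came from strain CSaY, and the IIIM testes and IIIM male heads from strain CS, with 3 libraries in each of these groups. Ovaries and female heads of CSaY and of CS had 1 library per strain and tissue. All flies were unmated adults, 4 to 6 days old, kept at 25 °C, and polyA RNA was sequenced. Each male genotype was represented by 1 strain, so other differences between the strains cannot be told apart from the location of the determiner.

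In insect testes, germ cells pass through meiosis as spermatocytes and then rebuild themselves as spermatids, which compact their DNA and grow a long flagellum. In Drosophila many genes for these steps are transcribed in spermatocytes, and their messages are often stored before translation. Genes with no recognised relative outside a lineage are often found among testis transcripts, and they tend to encode short proteins whose roles are unknown. No function is known from the table for any of the 58 genes. Of the 58 IDs, 43 (74.1%) were found in a RefSeq table of a newer assembly, beside 83.2% of all genes and 50.9% of the other genes of category lr. The 15 not found include LOC101895617, LOC101887804, LOC101899992, LOC101899823, LOC101887986 and LOC101887320, which are described below. Of the 43 found, 0 had a symbol other than the ID, so the genes are called by their IDs below.

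The genes were chosen by measured values, so their testis, head and ovary levels are a description. Of the 1934 genes of category lr, 2 were left out because their scaffold belongs to the X chromosome, and 197 of the remaining 1932 genes reached 50 FPKM (sequenced fragments scaled by transcript length and by library size) in the column that pools the testes of both strains. The limit of 2 FPKM in each of the 4 head groups removed 135 of those 197 genes. The limit on ovaries, below 2% of the testis level, removed 4 more. The last limit, a ratio of FPKM + 1 below 4 between the testes of the strains, removed 0 genes. LOC101894715 (50.1 FPKM) and LOC101891752 (50.8 FPKM) lay just above the testis limit, and LOC101890761 (42.1 FPKM) and LOC101887587 (40.9 FPKM) lay just below it. In heads the members nearest the limit were LOC101887804 and LOC101896036, with 1.76 and 1.73 FPKM in their highest head group, and the nearest genes outside were LOC101894388 (2.24 FPKM) and LOC101889729 (3.60 FPKM). For ovaries LOC101892078 (1.53% of its testis level) and LOC101900944 (1.49%) lay inside, and LOC101899352 (2.77%) and LOC101896351 (3.80%) outside.

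As a check of the tissue labels, bcd, a gene of the ovary whose product patterns the front of the Drosophila embryo, stood at 1.08 FPKM in the pooled testes, 217 FPKM in the pooled ovaries and was listed at 0 in all 4 head groups. The yolk protein gene yp3, whose Drosophila relatives are active in the female fat body and in ovarian follicle cells, stood at 8.62 FPKM in the pooled testes and 67.7 FPKM in the pooled ovaries. In heads it stood at 3.82 FPKM in YM males, 66.0 FPKM in IIIM males, 1328 FPKM in CSaY females and 347 FPKM in CS females, so it was present in IIIM male heads at about the ovary level. Markers of the testis and of the eye could not be checked by name. Every FPKM value is the authors' value for a whole group. The spread among the 3 male libraries of a group therefore has no value here, and depth is unknown. A value named as pooled is the authors' deposited value for a tissue over both strains. In such bulk tissue, fewer cells of a type and less RNA per cell cannot be told apart.

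A small number of the genes carried most of the group's testis signal. The 58 genes together made up 7.58% of the summed FPKM of all genes in YM testes and 7.70% in IIIM testes. The 10 highest held 66.4% of the members' own sum in the pooled column. Of the members, 3 ranked among the 10 most abundant genes of the testis, 10 among the top 100 and 35 among the top 500. The pooled testis level ran from 50.1 to 10227 FPKM with a median of 660 FPKM, and 22 genes reached 1000 FPKM.

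The gene with the highest pooled level, LOC101888773, stood at 10807 FPKM in YM testes and 8699 FPKM in IIIM testes. It lies at NW_004765343:61689-62912, alone at its locus, on a scaffold that the table assigns to chromosome II. LOC101895617 stood at 10773 FPKM in YM testes and 11829 FPKM in IIIM testes and is the shortest of the members alone at their locus, with a locus of 258 bases on chromosome I at NW_004765987:52314-52571. These 2 genes were thus nearly level in YM testes, while LOC101895617 was the higher of the pair in IIIM testes.

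LOC101887804 and LOC101898014 belong to 1 ortholog group (a set of genes the table treats as descended from 1 ancestor), and they are its only genes. LOC101887804 stood at 9820 FPKM in YM testes and 8701 FPKM in IIIM testes, at NW_004765372:155438-155887. LOC101898014 stood at 10549 FPKM in YM testes and 7764 FPKM in IIIM testes, within a shared locus at NW_004764825:162879-203269. Both scaffolds belong to chromosome V, and no source used here says how reads shared by related copies were counted, so each level is uncertain. With LOC101888773 and LOC101895617 they made up 3.47% of all summed FPKM in YM testes and 3.42% in IIIM testes.

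The next 6 genes lay between 2031 FPKM (LOC101891426) and 4274 FPKM (LOC101900995) in the pooled column. LOC101900995 stood at 4347 FPKM in YM testes and 4776 FPKM in IIIM testes. LOC101894826, on a scaffold with no chromosome, stood at 3633 FPKM in YM testes and 3895 FPKM in IIIM testes. LOC101890247 stood at 4325 FPKM in YM testes, against 2216 FPKM in IIIM testes, and LOC101894369 the other way at 2328 FPKM in YM testes, against 3673 FPKM in IIIM testes. LOC101897000 (2401 FPKM in YM testes, 2367 FPKM in IIIM testes) and LOC101891426 (2126 FPKM in YM testes, 2164 FPKM in IIIM testes) were the most even of the 10. Among these 10 genes the strains therefore differed by more than 1.5-fold in 2 and by less in 8.

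**Figure D1:**
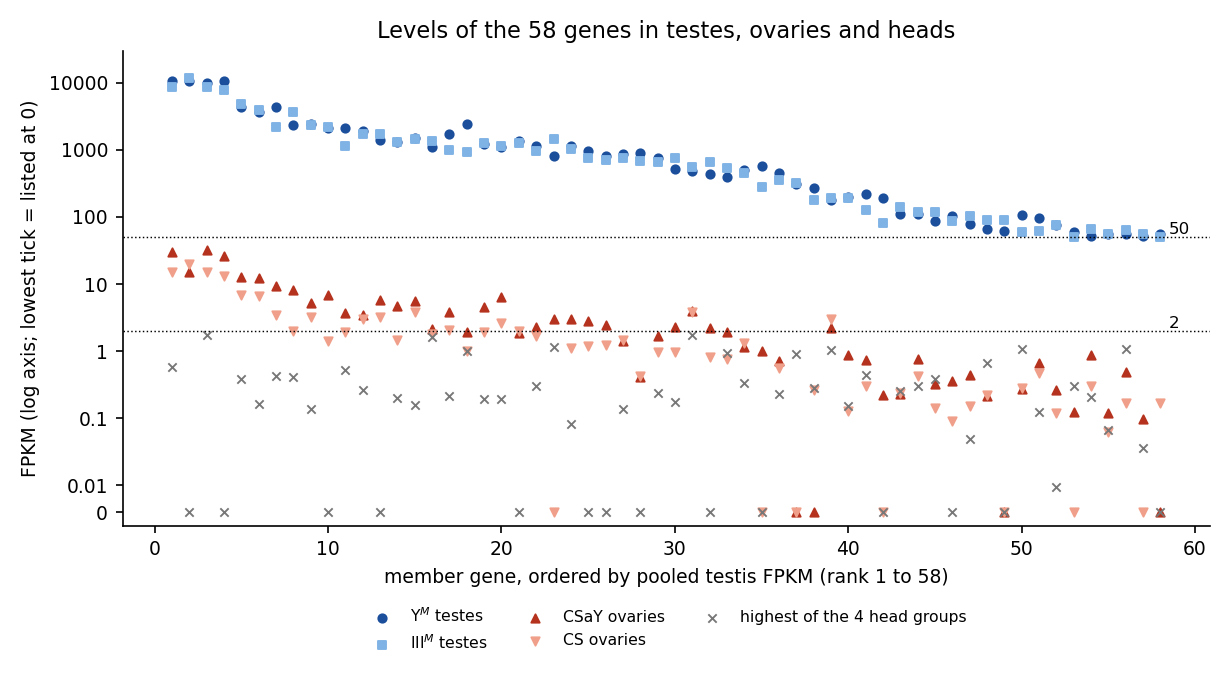
FPKM on a log axis for each of the 58 genes, ordered by pooled testis level, in YM testes, IIIM testes, CSaY ovaries, CS ovaries and the highest of the 4 head groups; each point is 1 group value, and values listed at 0 sit on the lowest tick. Ovary values fall along with testis values from left to right, whereas the head values, all below the dotted line at 2 FPKM, do not.

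Shorter loci held the more abundant genes. Of the 58 genes, 47 were alone at their locus, and their loci spanned 258 to 18756 bases with a median of 1186 bases. The 22 genes with a locus below 1000 bases had a median of 1029 FPKM in the pooled testes (range 53.1 to 9731 FPKM). The 13 genes between 1000 and 5000 bases had a median of 769 FPKM, and the 12 genes of 5000 bases or more a median of 98.2 FPKM (range 50.1 to 853 FPKM). Across these 47 genes Spearman's rho between locus span and testis FPKM was -0.51, a description over genes that share the same libraries. The span includes introns, FPKM is scaled by transcript length, and the part of length estimation in this relation was not tested.

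The genes without a fly ortholog had shorter loci and a higher median level than single-copy genes with a fly ortholog, the table's category "sco", within the same limits. There were 151 of these conserved single-copy genes, and genes of the table's other ortholog categories were not counted among them. The median pooled testis level was 660 FPKM for the 58 genes, against 292 FPKM for the conserved genes. Of the 47 genes alone at their locus 46.8% had a locus below 1000 bases, while 25.4% of the 126 conserved genes alone at theirs did, with a median span of 2613 bases. The remaining 140 genes of category lr at or above 50 FPKM in testes, which failed another limit, were closer in span: the 117 of them alone at their locus had a median of 1513 bases, and 41.0% lay below 1000 bases. Their median testis level was 99.9 FPKM. Over all 12899 genes alone at their locus, the median was 3453 bases and 18.8% lay below 1000 bases. These are descriptions of gene sets chosen by their levels, with no test.

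**Figure D2:**
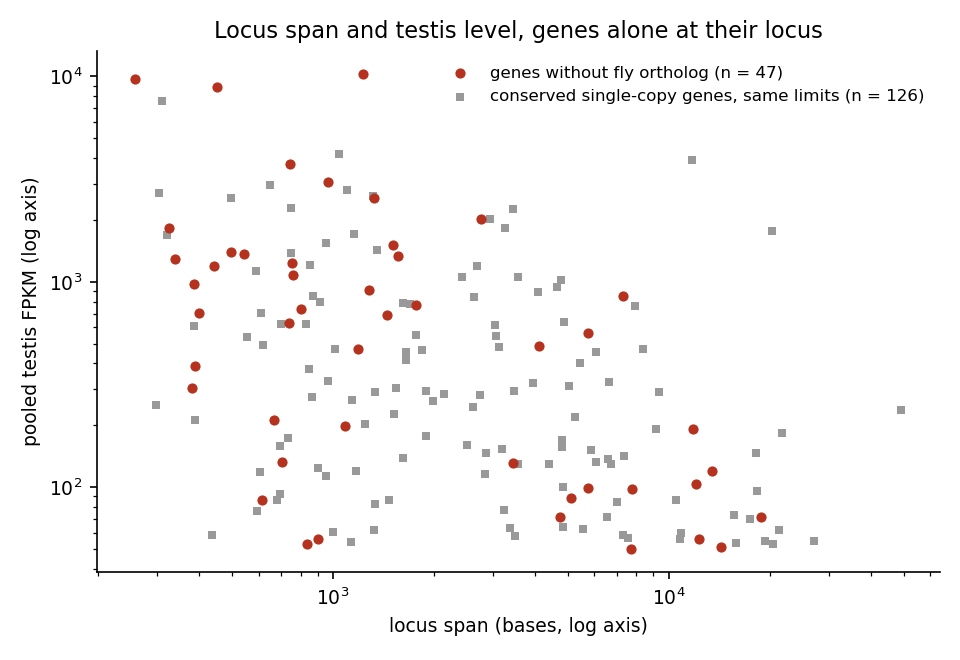
Pooled testis FPKM against locus span, both on log axes, for the 47 genes without a fly ortholog that are alone at their locus (circles) and for 126 conserved single-copy genes within the same limits (squares); each point is 1 gene. Circles at 5000 bases or more all lie at or below 853 FPKM, and the highest circle, at 10227 FPKM, has a locus of 1224 bases.

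In heads the genes were close to the limit of detection. Of the 58 genes, 28 were listed at 0 in YM male heads and 28 in IIIM male heads, 36 in CSaY female heads and 32 in CS female heads. In 14 genes all 4 head groups were listed at 0. In 50 genes every head value lay below 1 FPKM, and the median of the highest head value was 0.0194% of the testis level. LOC101893827 had the highest such share, at 2.01%, with 1.07 FPKM in its highest head group and 53.1 FPKM in the pooled testes. Spearman's rho between head and testis level was -0.02 in YM male heads, -0.03 in IIIM male heads, -0.35 in CSaY female heads and 0.09 in CS female heads over the 58 genes. LOC101896036 was the member with the highest male head level, at 1.66 FPKM in YM male heads and 1.73 FPKM in IIIM male heads, and LOC101887804 led in CSaY female heads with 1.76 FPKM. LOC101896036 was also the only member the authors tested between male heads, and it was not called, with q = 0.958 in the authors' deposited table (a gene is called here when that q lies below 0.05, as 9.25% of all tested genes were in this comparison). Of the 2 members tested between male and female heads 0 were called in the authors' deposited table, where 13.3% of all tested genes were. No member was tested between the female heads.

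In ovaries the genes were detected at a small share of the testis level, and for most genes that share lay in a narrow range. CSaY ovaries held a median of 0.284% of the level in YM testes, with quartiles of 0.189 and 0.376%. CS ovaries held a median of 0.155% of the level in IIIM testes, with quartiles of 0.112 and 0.194%. Spearman's rho with the pooled testis level was 0.91 for CSaY ovaries and 0.84 for CS ovaries over the 58 genes, which share the 2 ovary libraries, and the ovary limit of the rule bounds this relation from above. LOC101888773 stood at 29.8 FPKM in CSaY ovaries and 15.4 FPKM in CS ovaries, and LOC101887804, the highest member in CSaY ovaries, at 31.8 FPKM there and 15.2 FPKM in CS ovaries. LOC101889691 (302 FPKM in the pooled testes) and LOC101893706 (88.7 FPKM) were listed at 0 in both ovary libraries. The highest shares belonged to LOC101892078, with 1.70% of the YM testis level in CSaY ovaries, and LOC101900944, with 1.58% of the IIIM testis level in CS ovaries.

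Most of the genes stood higher in the CSaY than in the CS ovary library. Of the 56 genes above 0 in either library, 45 were higher in CSaY ovaries and 11 lower, while 49.1% of all 10916 such genes in the table were higher in CSaY. Of the 49 genes above 0 in both, 33 were at least 1.5-fold higher in CSaY ovaries (67.3%), a size that 11.5% of all 9645 such genes reached. The median ratio of CSaY over CS was 1.94 with quartiles of 1.29 and 2.44, whereas over all genes above 0 in both libraries it was 0.994. The members' summed ovary FPKM was 241 in the CSaY and 135 in the CS library. In the testes their summed FPKM in YM was 1.10 times that in IIIM.

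The direction was shared by abundant and less abundant members. Among the 22 genes of at least 1000 FPKM in the pooled testes, 20 were higher in CSaY ovaries, with a median ratio of 1.92 and a range of 0.763 to 4.86. Among the other 36 genes 25 were higher, and 27 of them were above 0 in both libraries. The highest ratio of all members was 6.76, in LOC101890352 (0.879 FPKM in CSaY ovaries, 0.130 FPKM in CS ovaries). LOC101891426 stood at 6.84 FPKM in CSaY ovaries and 1.41 FPKM in CS ovaries, a ratio of 4.86, though its testis values were nearly equal. LOC101895617 went the other way, with 15.0 FPKM in CSaY ovaries and 19.7 FPKM in CS ovaries. The same lean was present in the conserved single-copy genes within the same limits, of which 115 of 147 above 0 in either library were higher in CSaY ovaries, with a median ratio of 1.65 over 137 genes.

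These ovary comparisons set 1 library against 1 library and have no replicate check. Of the 32 members the authors tested between the ovaries 0 were called in the authors' deposited table, where 0.358% of all tested genes were. Low values of all genes change in steps of single reads, and their most frequent ratio of CSaY over CS was 0.971, which is what a read is worth in one ovary library relative to the other. For 6 of the 49 genes the ratio lay within 3% of 0.971, as equal small numbers of reads would give. For 7 more it lay within 3% of 2 times 0.971, a ratio that 2 reads against 1 would also give. These 7 range from LOC101889925, at 0.120 FPKM in CSaY ovaries and 0.0615 FPKM in CS ovaries, to LOC101888773, at 29.8 FPKM in CSaY ovaries and 15.4 FPKM in CS ovaries. The locus of LOC101888773 spans 1224 bases, while LOC101889580, with a locus of 668 bases, was listed at 0.267 FPKM in CS ovaries. A ratio near 2 times 0.971 does not by itself mean that so few reads were counted. The members' median ratio of 1.94 lies near 2 times 0.971. Among the 22 genes of at least 1000 FPKM in the pooled testes the median was 1.92. Whether steps of single reads shape these medians was not tested. The number of reads behind each value is unknown, and ratios of the low members are coarse. What the parallel of ovary and testis levels rests on was not tested.

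**Figure D3:**
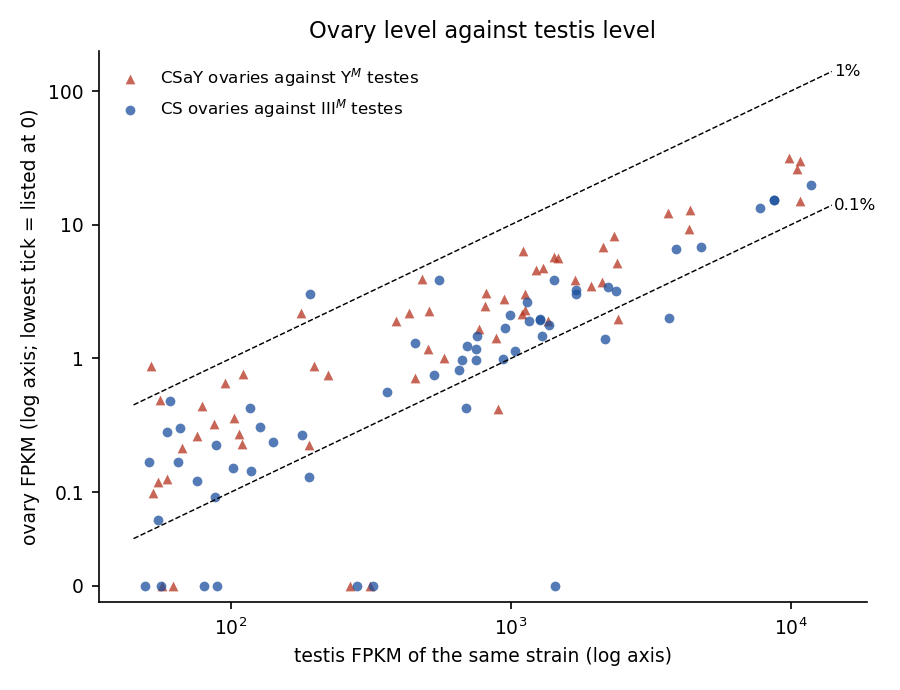
Ovary FPKM against testis FPKM of the same strain, both on log axes, for the 58 genes: triangles for CSaY ovaries against YM testes, circles for CS ovaries against IIIM testes, with dashed lines at 0.1 and 1% of the testis level and values listed at 0 on the lowest tick. Most points lie between the lines, and the triangles (median 0.284%) mostly lie above the circles (median 0.155%).

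By the authors' test of testis against ovary, 42 of the 58 genes were called higher in testis in the authors' deposited table, where 32.4% of all tested genes were. Since the limits used this contrast, nothing is read from that count. The 16 genes that were not called had 242 to 1803 times more FPKM in the pooled testes than in the pooled ovaries, and a median of 580 times. The 40 called genes above 0 in ovaries had 65.3 to 676 times more, with a median of 305 times. LOC101889755, with 703 FPKM in the pooled testes and 0.390 FPKM in the pooled ovaries, had q = 0.265 in the authors' deposited table. LOC101892078, with 56.0 and 0.857 FPKM, had q = 0.00358 there. The genes that missed the call were thus not those with the smallest difference between the gonads.

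Between the testes of the strains most of the genes stood at similar levels, and 12 genes differed by 1.5-fold or more. Of the 58 genes 32 were higher and 26 lower in YM testes, and the median difference either way was 1.19-fold. The strains lay within 1.5-fold in 46 genes and within 2-fold in 55. By the authors' test 14 genes were called (24.1%), 10 higher and 4 lower in YM testes, in the authors' deposited table, where 13.0% of all tested genes were called, 7.61% higher and 5.41% lower. Among the remaining 140 genes of category lr at or above 50 FPKM the share called was 23.6%, close to that of the members. Of these calls 26 were higher and 7 lower in YM testes. Among the 151 conserved single-copy genes within the same limits the share was 17.2%, with 15 genes higher and 11 lower. The limits used this contrast, so these counts are given as a description. Calls followed size among the members: every gene with a log2 ratio of at least 0.55 in either direction was called and no gene at or below 0.52 was.

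The largest and the third largest rise in YM testes belonged to neighbouring relatives. LOC101899992 stood at 2421 FPKM in YM testes, against 937 FPKM in IIIM testes, 2.58-fold higher. LOC101899823, 81 bases away on scaffold NW_004766309 and the only other gene of its ortholog group, stood at 576 FPKM in YM testes, against 283 FPKM in IIIM testes, 2.03-fold higher. Both lie on a scaffold with no chromosome, at positions 4888 to 5226 and 4420 to 4806, and reads shared by the pair cannot be told apart here. LOC101887986 on chromosome II stood at 191 FPKM in YM testes, against 80.1 FPKM in IIIM testes, 2.38-fold higher. LOC101890247 on chromosome III was 1.95-fold higher and LOC101894718, with 2116 FPKM in YM testes and 1157 FPKM in IIIM testes, 1.83-fold higher. In the authors' deposited table q was 0.00107 for each of these 5 genes, the lowest value among the members, which 7 of them shared.

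The largest difference the other way was smaller in size. LOC101887320 on chromosome II stood at 813 FPKM in YM testes, against 1444 FPKM in IIIM testes, 1.78-fold lower (q = 0.00107 in the authors' deposited table). The next 3 lie on chromosome V. LOC101894369, given above, had a log2 ratio of -0.66, LOC101895476 stood at 433 FPKM in YM testes and 652 FPKM in IIIM testes, and LOC101894097 at 512 FPKM in YM testes and 749 FPKM in IIIM testes. Their q values were 0.0205, 0.0356 and 0.0290 in the authors' deposited table. LOC101893706, the fifth in size, stood at 62.1 FPKM in YM testes and 89.7 FPKM in IIIM testes and was not called, with q = 0.204 in the authors' deposited table.

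The called members of chromosome III were all higher and those of chromosome V all lower in YM testes. On chromosome III 5 of the 10 members were called, all higher in YM testes. They were LOC101890247, LOC101889114 (1701 FPKM in YM testes, 992 FPKM in IIIM testes), LOC101891771 (223 FPKM in YM testes, 127 FPKM in IIIM testes), LOC101900266 (107 FPKM in YM testes, 59.4 FPKM in IIIM testes) and LOC101889580 (267 FPKM in YM testes, 180 FPKM in IIIM testes). Over all 1602 tested genes of chromosome III, 23.6% were called and 14.1% were called higher in YM testes. On chromosome V 3 of the 11 members were called, all lower in YM testes, and on chromosome II 2 of 9, in opposite directions, beside 9.66% and 9.17% of all tested genes of these chromosomes. Over all tested genes of chromosome V 6.04% were called higher in YM testes. Most calls on that chromosome thus went the other way from its 3 called members. On chromosomes I and IV 0 of 8 and 0 of 9 were called, beside 9.81% and 9.19% of all tested genes there. Of the 11 members on scaffolds with no chromosome 4 were called, all higher in YM testes, and they include the pair on NW_004766309. Over all 1545 tested genes on such scaffolds 18.1% were called and 10.8% were called higher in YM testes.

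The median log2 ratio of YM over IIIM was 0.34 on chromosome III (range -0.52 to 0.96) and -0.36 on chromosome V (range -0.66 to 0.44), and these ranges overlap. The medians were 0.18 on chromosome I, -0.03 on chromosome II and 0.02 on chromosome IV. Over the 58 genes the median was 0.03, beside 0.02 over all tested genes. The spread of the members' differences was also close to that of the rest, with a median absolute log2 ratio of 0.25, beside 0.25 for the conserved single-copy genes within the same limits and 0.23 for all tested genes.

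**Figure D4:**
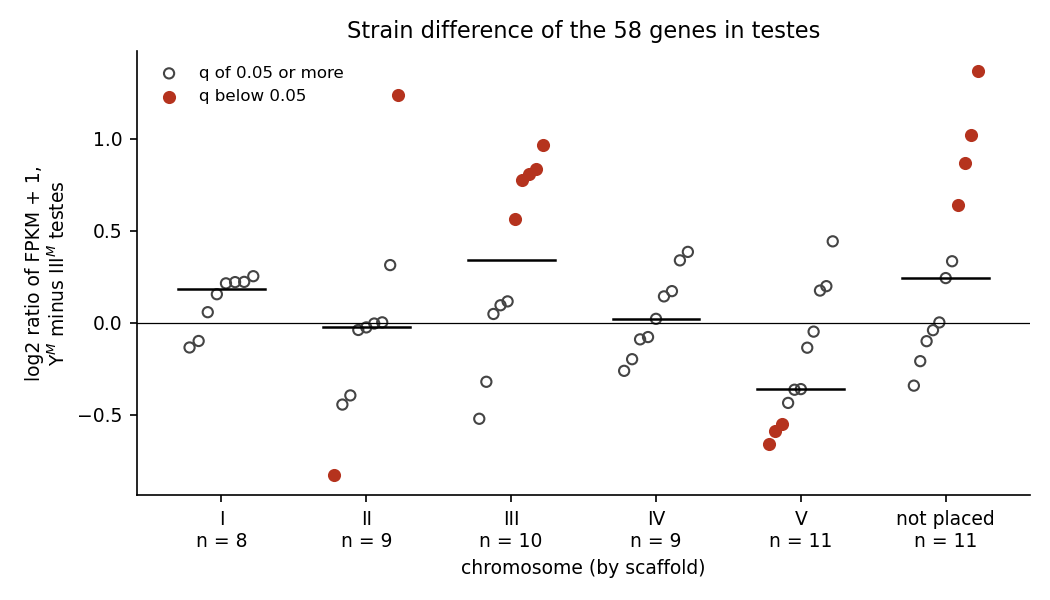
Log2 ratio of FPKM + 1, YM minus IIIM testes, for each of the 58 genes by chromosome; each point is 1 gene, filled where the authors' q lies below 0.05, and bars are medians over genes. On chromosome III the 5 filled points all lie above 0 and on chromosome V the 3 filled points all lie below 0.

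The genes were scattered over the genome. They lay on 55 scaffolds, of which 52 held 1 member and 3 held 2. Of the 47 on placed scaffolds, 8 were on chromosome I, 9 on II, 10 on III, 9 on IV and 11 on V. The share on chromosome III was 21.3% (exact 95% interval 10.7 to 35.7%, counting error only), beside 18.2% of all placed genes. The share on chromosome V was 23.4%, beside 20.9% of all placed genes and 13.6% of the conserved single-copy genes within the same limits. The other placed genes of category lr had similar shares, 21.9% on chromosome III and 23.4% on V. Those among them at or above 50 FPKM in testes had 19.6% and 26.5%. No test of these shares was made.

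Few of the genes had a relative in the table. Of the 58, 48 were the only gene of their ortholog group and 10 had at least 1 relative, a share of 82.8% without relatives, beside 72.9% of the other 1876 genes of category lr and 85% of those among them at or above 50 FPKM in testes. The largest group held 11 genes. In it LOC101889580 (212 FPKM in the pooled testes, on chromosome III) and LOC101891752 (50.8 FPKM, on chromosome IV) were members, and the other 9 genes reached 0.0892 to 5.73 FPKM in the pooled testes. LOC101889755 on chromosome IV, at 703 FPKM in the pooled testes and 0.390 FPKM in the pooled ovaries, had 1 relative, LOC101889746 on another scaffold, and that relative stood at 26.2 FPKM in testes and 248 FPKM in ovaries. The 2 copies were thus high in opposite gonads. LOC101894530 (130 FPKM in the pooled testes) stood beside its relatives LOC101894687 (4.92 FPKM) and LOC101894847 (1.04 FPKM) on scaffold NW_004764529, with the member LOC101894369 of another group (2563 FPKM) 6171 bases to its other side. The last pair on 1 scaffold, LOC101900944 and LOC101898866, lay 329020 bases apart.

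For 54 members another locus lay on the same scaffold. The most abundant gene of the nearest one had a median of 26.1 FPKM in the pooled testes, beside 11.9 FPKM for the nearest neighbours of all genes. The medians for the 2 sets most like the members were closer: 21.6 FPKM beside the conserved single-copy genes within the same limits, and 21.5 FPKM beside the remaining genes of category lr at or above 50 FPKM. In 22 of the 54 cases (40.7%) this neighbour reached 50 FPKM. The share was 34.9% for the conserved single-copy genes, 33.3% for the remaining abundant genes of category lr and 22.8% for all genes. The distance was below 1000 bases in 11 cases (20.4%), beside 33.6% for the conserved single-copy genes, 30.8% for the remaining abundant genes of category lr and 3101 of 12934 for all genes. A neighbour this near was thus no more frequent among the members than in the other sets. In some of these the neighbour was abundant in testis too: LOC101896036 (565 FPKM) lay 241 bases from LOC101896197 (2031 FPKM), LOC101900266 (86.2 FPKM) lay 578 bases from LOC101897914 (644 FPKM), and LOC101894718 (1818 FPKM) lay 137 bases from LOC101895042 (604 FPKM). In others it was not: LOC101887320 (974 FPKM) lay 48 bases from LOC101900007 (10.2 FPKM), and LOC101890668 (485 FPKM) lay 191 bases from LOC101889821 (2.26 FPKM in testes, 274 FPKM in ovaries). Strand is not in the table, so overlap of transcripts at such short distances was not tested.

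The 11 members at shared loci lay mostly beside conserved genes with lower testis levels than theirs. Their loci held 14 other genes, 9 of them single-copy genes with a fly ortholog. These 14 genes had a median of 10.6 FPKM in the pooled testes, beside 7.02 FPKM over all genes. The 11 members had a median of 1160 FPKM, but only members had to reach 50 FPKM. LOC101893180 (1369 FPKM) shared the longest locus, at NW_004764548:215261-516934, with LOC101894690 (537 FPKM) and LOC101893340 (18.0 FPKM). LOC101891771 (140 FPKM) shared its locus with 3 genes, among them LOC101891599, which stood at 158 FPKM in testes, and LOC101891419, which stood at 0.167 FPKM in testes and reached 4502 FPKM in its highest head group. No source used here says how reads were divided within such loci.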

How the data were processed

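Per the labels' protocols, polyA RNA was made into TruSeq libraries. Cufflinks 2.2.1, Bowtie2 2.1.0.0, TopHat2 2.0.8b and CASAVA 1.8.2 appear in the submitters' processing notes. No source used here gives their roles, the genome build or the annotation. FPKM values were made by the authors before deposit, 1 per strain, sex and tissue, plus columns that pool strains, per the file headers. The q value of each comparison is used as deposited by the authors, with an adjustment that no source used here describes. The test statistic, a score in the authors' deposited table, was not used. Pooled columns differ in scale (median ratio to the mean of their strain columns 0.996 for testes and 1.24 for ovaries).

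No test was added. Log2 ratios used FPKM + 1, YM minus IIIM, and folds are ratios of FPKM. Starts in the authors' deposited table were taken as counted from 0, since end minus start equals the RefSeq length in 151 genes (1 more in 8), and are printed counted from 1. Of all IDs 12168 were found in the RefSeq table (assembly GCF_030504385.1), which served for names, and 52 had a symbol. That table has no descriptions or sequences, so the 6 gene lists were matched to symbols alone: the proteolysis list matched 4 genes, the 5 others 0, and members 0. Sequence features were not analysed here. The members, lists and comparisons were chosen with earlier results of these data known. Named genes are the 10 highest in testes, the 5 largest differences in each direction, the genes nearest each limit, the longest and shortest, and those highest in heads and ovaries. Related and neighbouring genes, the genes called on chromosome III and single examples in ovaries, heads and shared loci were named after their values were seen. The calculation that applies the limits was checked on planted genes that varied only in ovary level and strain ratio. Tools were matplotlib 3.10.9, scipy 1.17.1, pandas 2.3.3 and numpy 2.4.6 under Python 3.11.15.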

Additional observations from a re-analysis of the deposited data

How the results depend on the processing

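The number of genes, the number called between testes, the median strain difference, the median testis level, the share on chromosome III and the median ovary ratio were recomputed with other limits. These were a testis minimum of 25 or 100 FPKM, a head maximum of 1 or 5 FPKM, an ovary maximum of 1 or 5%, a strain ratio below 2 or without limit, X scaffolds kept, strain means in place of pooled columns, and shared loci left out. The number of genes ran from 45 to 67, the calls from 11 to 17 and the median CSaY over CS ovary ratio from 1.92 to 1.98. The median testis level moved with the testis limit, from 472 FPKM at a minimum of 25 FPKM to 974 FPKM at 100 FPKM. All 6 results stayed within 1.5 times their count or within the 95% interval of their median or share over the members. These intervals treat genes of the same libraries as independent, and the settings keep mostly the same genes. For the median testis level the interval is wide, 302 to 1084 FPKM. Staying within these margins therefore shows only that the values moved by less than them, and nothing about other libraries. At q below 0.01 the calls dropped to 9, by construction of a stricter limit, and with q below 0.05 and at least 1.5-fold they came to 12. The median log2 ratio was 0.03 with a pseudocount of 0.1 FPKM and 0.02 when centred on all tested genes. With unplaced genes in the denominator 17.2% of the members were on chromosome III. No paired analysis was possible because the table holds 1 value per male group and no value of single libraries, which also kept single replicates from being left out. Promoter motif shares were not run, since no sequence was at hand.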
